A study of Mus musculus with 8 samples.

Results

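The goblet cells of the mouse small intestine are described here on their own, from the 4 arrays whose titles name small-intestinal goblet cells, of 8 arrays in the series. Membership was set by the sample titles alone. The cells came from C57Bl/6 mice, and the sources used here give no age, sex or genotype beyond that strain. Epithelium was lifted with EDTA, and cells were sorted by flow cytometry as CD45-, CD24-, positive for cytokeratin 18 and bound by UEA-I, a lectin that recognises fucosylated glycans. Their RNA was labelled as cRNA and hybridised to an Illumina mouse array, 1 array per sample. The labels do not say whether the 4 samples came from separate animals, from pools or from repeats of 1 preparation, nor which stretch of small intestine was taken. An SD below is the spread over these 4 samples and could be technical in part or whole.

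Goblet cells are the mucus-making cells of the intestinal epithelium. They arise from crypt stem cells through the transcription factors Atoh1 and Spdef, fold and glycosylate very large mucins in the endoplasmic reticulum and Golgi, and store them in granules together with small proteins such as the trefoil peptide Tff3, the secreted chloride channel regulator Clca1 and the lectin-like Zg16. In the small intestine they sit among absorptive enterocytes, hormone-secreting enteroendocrine cells, chemosensory tuft cells, antimicrobial Paneth cells of the crypt base, and T cells lodged between the epithelial cells.

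The mean signal per array was 406, 518, 408 and 558 units on arrays 1 to 4, and 12475, 13922, 13404 and 13701 probes were above background, taken as a detection p below 0.05. Across all 25697 probes, Spearman's correlation between arrays ran from 0.916 for arrays 1 and 3 to 0.952 for arrays 3 and 4. Probes are not independent replicates, and these correlations are descriptive. Array 1 stood apart from the others, and arrays 3 and 4 were the closest pair. Only 68 genes differed 2-fold or more between arrays 3 and 4, which is 0.886% of the 7678 genes above background on all 4 arrays, against 405 to 1034 genes for the other 5 pairs. Arrays 3 and 4 shared no identical signal value and were kept as separate samples.

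Of 16590 named genes, 7678 (46.3%) were above background on all 4 arrays, 2420 (14.6%) on 1 to 3, and 6492 (39.1%) on none. Among probes the share was 11297 of 25697, or 44.0%. A further 684 of 1719 probes without a gene name were above background on all 4 arrays, the brightest at a mean of 14.03 log2. Each gene is represented by its brightest named probe. Values are background-corrected, quantile-normalized signals on a log2 scale, on which the lowest probe above background lay between 5.28 and 5.60 on the 4 arrays and the median gene above background on all 4 averaged 8.23. A signal rank orders probes within an array by brightness. It depends on each probe's own hybridisation and does not rank transcripts. In these sorted bulk samples, fewer cells of a type and less RNA per cell cannot be told apart.

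The 4 markers given for these cells were above background on every array. Tff3 read 12.64, 12.47, 12.61 and 12.61 log2 on arrays 1 to 4, an average of 12.58 ± 0.07 (SD, n = 4) at signal ranks 125 to 157 of 25697. Clca1 averaged 12.46 ± 0.21 and was lowest on array 1, at 12.15 against 12.55 to 12.59 on the others. Krt18, the keratin used in the sort, averaged 10.93 ± 0.28 and was highest on array 2, at 11.35 log2. Spdef, the transcription factor of goblet cell maturation, averaged 6.84 ± 0.13 at ranks 8318 to 9154. The median SD of all genes above background on all 4 arrays was 0.33 log2, but from 6 log2 upward spread fell with level. Below 6 log2 the median SD was 0.28 for 376 genes. At their own levels the median SD was 0.15 for Tff3 and Clca1 (12 log2 or above), 0.25 for Krt18 (10 to 12) and 0.38 for Spdef (6 to 8). Clca1 and Krt18 were thus above that of their level, and Tff3 and Spdef below it.

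Of 42 genes listed as goblet cell products, 37 had a named probe and 29 of these were above background on all 4 arrays, against 46.3% of all genes. Their median level was 9.96 log2 and their median SD 0.24. Zg16, which binds bacterial cell wall glycans, averaged 13.40 ± 0.08 at ranks 28 to 39. Itln1, the intelectin of goblet and Paneth granules, averaged 13.53 ± 0.13, and the membrane mucin gene Muc13 averaged 13.29 ± 0.20. Spink4, a small secreted peptide of goblet cells, averaged 12.46 ± 0.20, and Guca2a, which encodes guanylin, averaged 12.20 ± 0.11. Agr2, the disulphide isomerase that handles mucins, averaged 9.96 ± 0.25. Each of these 6 had an SD of 0.25 or below. Of the 29, 3 spanned 2-fold or more, among them the membrane mucin gene Muc4, which read 7.72, 7.39, 6.30 and 7.76 log2. The list also holds the trefoil genes Tff1 and Tff2, which are outside the 29 because they were above background on some arrays only. They ranged over 5.77 and 4.07 log2 and are described with the stomach genes. Of the genes with a probe, 4 were above background on no array, including Retnlb, a resistin-like molecule of goblet cells. Muc2 and Fcgbp were not analysed here.

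Regulators of the secretory lineage differed widely in signal. Of 18 listed genes, 13 (72.2%) were above background on all 4 arrays, against 46.3% of all genes. Their median was 10.10 log2, against 8.23 for all such genes. Cdx2, Hnf4a and Foxa3 were among the brighter members, while Spdef and Gfi1 averaged 6.84 and 7.21 log2. Atoh1 read 6.52, 6.28, 6.12 and 5.63 log2 and so came close to the background limit on array 4. Cdx2, the homeobox factor of intestinal identity, averaged 12.39 ± 0.07, Hnf4a 10.54 ± 0.07, and Foxa3 10.53 ± 0.26. Foxa1 and Foxa2, 2 related forkhead factors, were above background on no array. Elf3, an epithelial Ets factor, spanned more than 2-fold, with 8.48 log2 on array 1 against 9.64, 9.71 and 9.90 on arrays 2 to 4.

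The machinery that builds mucins was broadly present. Of 50 genes with a probe for protein folding and secretion, 46 (92.0%) were above background on all 4 arrays. So were 34 of 44 genes (77.3%) of mucin glycan synthesis, against 46.3% of all genes. P4hb, a protein disulphide isomerase, averaged 12.38 ± 0.28, Ssr3 of the translocon-associated complex 12.32 ± 0.09, and Kdelr1, a receptor that returns resident proteins to the endoplasmic reticulum, 12.82 ± 0.09. Its relative Kdelr2 did not share this evenness, with 7.19, 7.99, 9.99 and 9.82 log2 on arrays 1 to 4. Ern1, the stress sensor IRE1 alpha, was also uneven, with 6.16, 8.25, 7.56 and 7.28 log2. Among glycan genes, the polypeptide N-acetylgalactosaminyltransferase Galnt10 averaged 11.82 ± 0.07. B3gnt3, an N-acetylglucosaminyltransferase, read 10.63 log2 on array 1 and 11.61, 12.25 and 12.28 on arrays 2 to 4. The fucosyltransferase gene Fut2, whose product can make the glycan bound by UEA-I, was above background on array 2 only, at 5.46 log2, and Fut1 on no array.

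**Figure D1:**
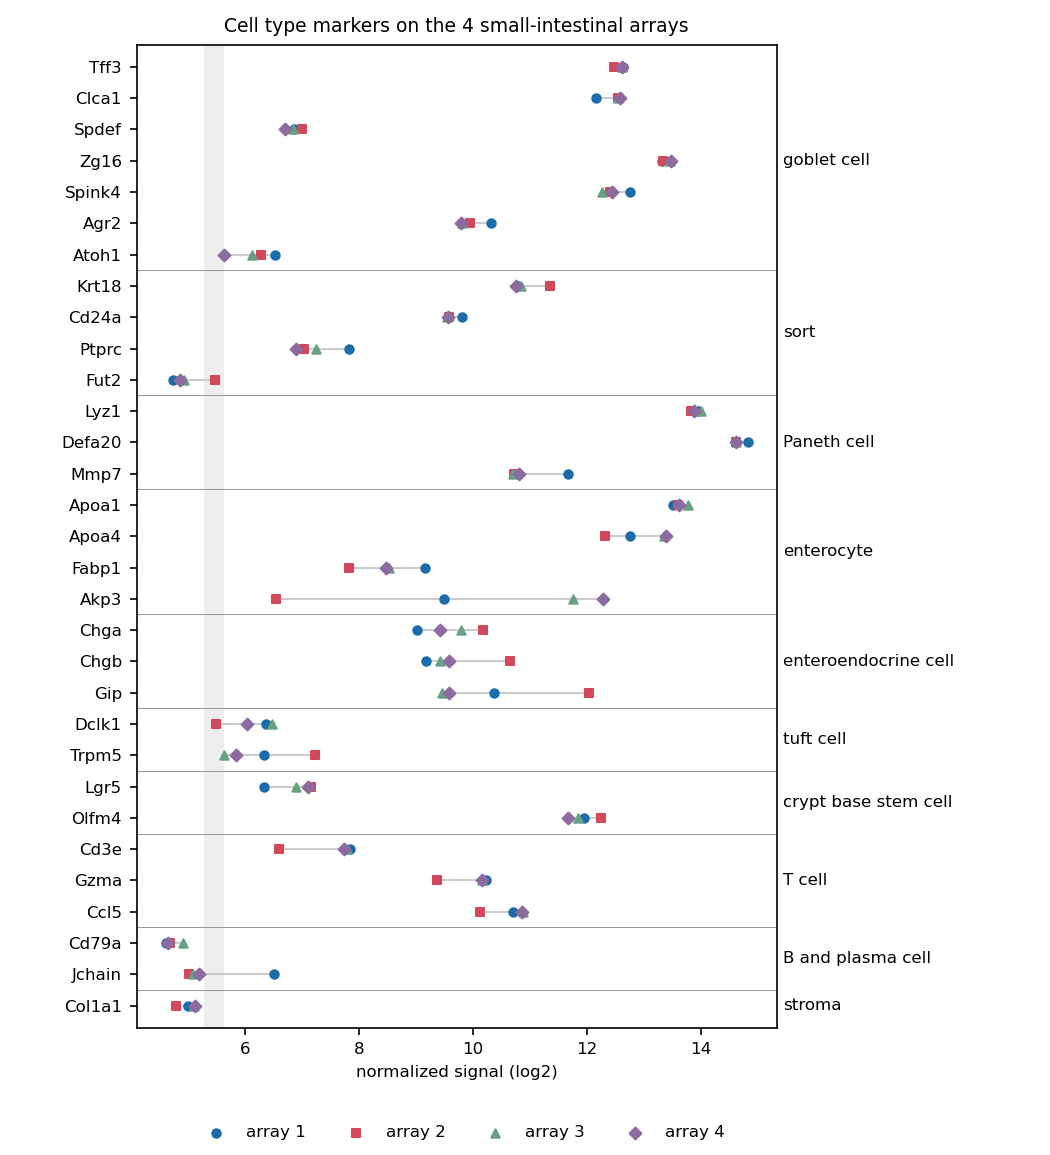
Normalized signal (log2, horizontal axis) of goblet cell, sort and other cell type markers on each of the 4 arrays, 1 symbol per array, with a grey line from the lowest to the highest array and a grey band at the background limit of 5.28 to 5.60 log2. Tff3, Zg16 and Lyz1 lie far right with narrow spread, Akp3 spans the widest range, and Cd79a and Col1a1 lie left of the band.

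Of the 25 brightest genes above background on all 4 arrays, 7 were on the Paneth cell list, 4 on that of cytosolic ribosomal proteins, 2 on that of goblet cell products and 1 on that of enterocytes. Rpl23, a protein of the large ribosomal subunit, had the brightest named probe on every array, at signals of 36844, 30881, 36684 and 43332 units. Its normalized SD of 0.00 follows from quantile normalization, which gives the top probe of every array the same value. With each array instead centred on its median over probes above background on all 4 arrays, its SD was 0.50 log2. Rps20, Rps9 and Rps24 of the small ribosomal subunit averaged 14.31, 14.24 and 13.32 log2. The alpha-defensins, antimicrobial peptides of Paneth granules, contributed Defa20, Defa39, Defa21, Defa22 and Defa26, with means from 13.53 to 14.67. These genes are near-identical copies, so a probe may read several of them. Lyz1, the Paneth cell lysozyme, averaged 13.92 ± 0.08, and Reg3b, a bactericidal C-type lectin, 13.49 ± 0.04.

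Other bright genes had varied roles. Fabp6, the ileal bile acid binding protein, averaged 13.77 ± 0.21, Apoa1, an apolipoprotein of chylomicrons, 13.63 ± 0.11, and Dbi, an acyl-CoA binding protein, 13.87 ± 0.06. Ckmt1, a mitochondrial creatine kinase, Spink1, a trypsin inhibitor, and Fth1, the ferritin heavy chain, averaged 13.57, 13.57 and 13.49 log2. The goblet cell products among the 25 were Zg16 and Itln1. For 4 of them a second named probe gave a far lower reading. Rchy1 averaged 14.26 on its bright probe and 7.99 on the other, Gemin2 13.59 and 6.97, and Terf2ip 13.38 and 7.81. Erich5 averaged 14.26 on its bright probe, while its other probe was above background on no array. The names of these 4 bright signals are therefore uncertain. Ctcfl, a germ-cell relative of the insulator protein Ctcf, stood second at 14.77 log2. No other probe was named for it, so its name could not be checked in this way.

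Enterocyte genes were also widely detected. Of 41 digestion and uptake genes with a probe, 40 were above background on all 4 arrays and 1 on some of them, against 46.3% of all genes on all 4. The median of the 40 was 11.14 log2. Fabp1, the liver-type fatty acid binding protein, averaged 8.49 ± 0.55 log2, and Apoa4, an intestinal apolipoprotein, 12.96 ± 0.51. Alpi and Lct were not analysed here. Of 20 Paneth cell genes with a probe, 17 were above background on all 4 arrays, with a median of 11.80 log2, including Mmp7, the protease that activates alpha-defensins, at 10.97 ± 0.46. The summed linear level of the Paneth list ran from 113065 to 126201 units over the 4 arrays and that of the enterocyte list from 93917 to 139147. Their part in the other results was not tested.

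Lists of further epithelial cell types were read against the 46.3% of all genes above background on all 4 arrays. Of 31 enteroendocrine genes with a probe, 14 (45.2%) were, a share near that of all genes, among them the granins Chga at 9.59 ± 0.49 and Chgb at 9.70 ± 0.65. Of 19 tuft cell genes, 9 (47.4%) were, again near that of all genes, with a median of 6.09 log2. Dclk1, a kinase used to mark tuft cells, averaged 6.09 ± 0.44. Of 19 crypt base stem cell genes, 14 were, with the R-spondin receptor gene Lgr5 at 6.87 ± 0.38 and the crypt glycoprotein gene Olfm4 at 11.93 ± 0.24. Of 32 proliferation genes, 31 were, with a median of 8.98 log2.

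Immune and mesenchymal lists split apart. Of 28 genes of T cells and intraepithelial lymphocytes, 17 (60.7%) were above background on all 4 arrays, against 46.3% of all genes. They included the granzyme gene Gzma at 9.97 ± 0.41 and the T cell receptor subunit gene Cd3e at 7.49 ± 0.60. A probe named for the perforin gene Prf1 averaged 11.44 ± 0.25, but a second was above background on no array, so this name is uncertain. The Ptprc probe, for CD45, read 7.82, 7.03, 7.24 and 6.88 log2 and was above background throughout, as was a second probe, highest on array 3. Cd24a averaged 9.62 ± 0.12 and was likewise above background throughout. None of 13 B and plasma cell genes was above background on all 4 arrays. The immunoglobulin joining chain gene Jchain was so on array 1 only, at 6.49 log2, and Cd79a on none. Of 23 myeloid genes, 3 were above background on all 4 arrays and 16 on none. Of 25 stroma and muscle genes, the smooth muscle actin gene Acta2 alone was, at 9.38 ± 0.24, while 19, including the collagen gene Col1a1, were on none. Of 21 genes listed for pancreatic acinar cells, 8 (38.1%) were above background on all 4 arrays and 8 on none, shares near the 46.3% and 39.1% of all genes. The first group included the lipase cofactor gene Clps, at 11.20 ± 0.13, and the ribonuclease gene Rnase1, at 8.24 ± 0.49, as well as Zg16 and Spink1. The digestive enzyme genes Cpa1 and Prss2 were among those on none.

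The spread between arrays depended on the level. Among genes above background on all 4 arrays, 2094 of 7678 (27.3%) spanned at least 2-fold from the lowest to the highest array, and 100 (1.30%) at least 4-fold. The share spanning 2-fold was 37.0% for 3085 genes with means from 6 to 8 log2, 27.2% for 2740 genes from 8 to 10, and 12.1% for 1253 genes from 10 to 12. For 224 genes at 12 or above it was 2.23%. The 376 genes with means below 6 log2 broke this order, with a share of 13.6%. Array 1 carried much of this spread. It was the highest array for 908 and the lowest for 722 of the 2094 genes. Without array 1, 783 genes spanned 2-fold and 24 spanned 4-fold. A second probe could be read for 2027 genes with 2 or more probes above background on all 4 arrays. It shared the highest array with the first probe for 916 genes, and the lowest array also for 916. Where both probes spanned at least 2-fold, 140 of 235 shared the highest array and 157 the lowest.

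**Figure D2:**
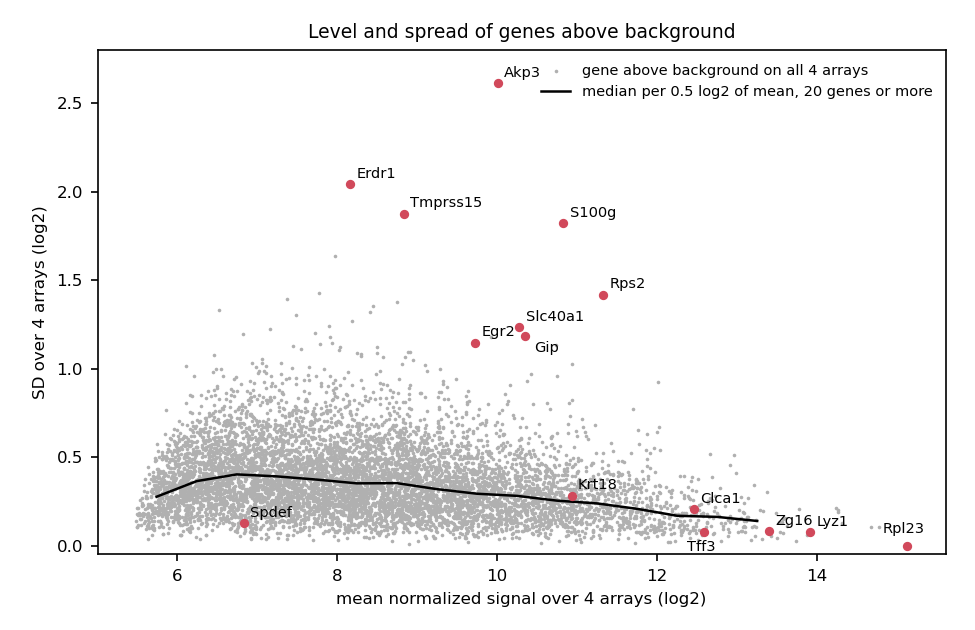
SD over the 4 arrays (log2, vertical axis) against the mean normalized signal (log2, horizontal axis) of the 7678 genes above background on all 4 arrays, 1 grey point per gene, with the median SD per 0.5 log2 of mean as a black line and the genes named in the text in red. Akp3 has the widest spread, at 2.62 log2, while Tff3, Zg16 and Lyz1 lie at 0.08 or below.

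The 25 genes with the widest range were mixed. They included Akp3 of the enterocyte list, S100g and Slc40a1 of the proximal list, Gip, Kdelr2, Egr2 and Rps2 of other lists, and 18 genes of no list. Akp3, an intestinal alkaline phosphatase of the duodenal brush border, read 9.48, 6.54, 11.76 and 12.28 log2 on arrays 1 to 4. Its range of 5.74 log2, or 53.5-fold, was the widest of the 7678 genes. Tmprss15, the enteropeptidase that activates trypsinogen, read 9.24, 6.09, 9.78 and 10.24 log2. A second Tmprss15 probe was above background on arrays 3 and 4 only, at 6.11 and 7.06 log2. S100g, the calcium-binding protein calbindin D9k, read 11.35, 8.15, 11.58 and 12.23 log2, a 16.9-fold range. In all 3 genes array 2 was the lowest, and arrays 3 and 4 were the highest.

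Transporters of metals and vitamins were also among the 25. Slc40a1, the iron exporter ferroportin, read 10.05, 8.70, 10.74 and 11.63 log2. Slc30a10, a manganese exporter, read 7.91, 6.84, 9.17 and 9.90. Slc46a1, the proton-coupled folate transporter, read 6.49, 6.65, 9.13 and 9.63, low on arrays 1 and 2. All 3 were highest on array 4 and next highest on array 3. Car2, a cytosolic carbonic anhydrase, was near the background limit on array 2, at 5.38 log2 against 7.97, 7.60 and 8.57 on arrays 1, 3 and 4. A second Car2 probe read 5.33, 5.47, 5.87 and 6.57 log2. It was above background on 3 arrays and lowest on array 1, not array 2. Aqp3, a water and glycerol channel, was lowest on array 1, with 5.85, 7.58, 9.12 and 8.53 log2.

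Position genes of the gut were set side by side with these. Of 27 genes listed for the proximal small intestine, 22 (81.5%) were above background on all 4 arrays, against 46.3% of all genes. Of these 22, 12 (54.5%) spanned at least 2-fold, against 27.3% of all such genes. In this list 13 of 22 were lowest on array 2 and 11 highest on array 4, with no matching count over all genes. Pdx1, a homeobox factor of the duodenum and pancreas, read 6.78 and 8.02 log2 on arrays 3 and 4 and was not above background on arrays 1 and 2, which makes array 4 at least 6.65-fold higher than the lowest array. Gata4, a factor of the upper small intestine, read 7.24, 7.71, 8.33 and 8.32 log2. Of 27 genes of the distal small intestine, 24 (88.9%) were above background on all 4 arrays. Of these 24, 5 (20.8%) spanned 2-fold, near the 27.3% of all genes. Fabp6 read 14.02, 13.79, 13.73 and 13.53 log2, and Slc10a2, the ileal bile acid transporter, 8.44, 8.72, 8.85 and 8.35. Fgf15, the ileal hormone that restrains bile acid synthesis, read 7.22, 6.53, 6.35 and 6.30. Genes of upper and of lower small intestine were thus both above background on every array.

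Gene lists moved by array, which is shown as the median over each list of the deviation from each gene's own mean. Over all genes above background on all 4 arrays this deviation was 0.07, 0.01, -0.03 and -0.02 log2 on arrays 1 to 4. Among the 2094 of these genes that spanned 2-fold, arrays 1 to 4 were the highest for 908, 471, 384 and 331. They were the lowest for 722, 552, 467 and 353. The list counts by highest or lowest array, here and in what follows, take members of any range. No matching count over all genes is given for them. For the proximal list the median deviation was -0.08, -0.52, 0.23 and 0.28, and for the enterocyte list -0.13, -0.38, 0.28 and 0.17. Of 40 enterocyte genes, 25 were lowest on array 2, none was highest there, and 27 were highest on array 3. Drug and xenobiotic metabolism genes gave -0.21, -0.32, 0.29 and 0.29, with the drug-oxidising cytochrome gene Cyp3a11 at 10.12, 9.99, 11.64 and 11.98 log2. MHC class II genes gave -0.12, -0.41, 0.27 and 0.32, with the peptide-loading gene H2-DMa at 6.36, 7.37, 8.67 and 8.74 log2. T cell and intraepithelial lymphocyte genes gave 0.25, -0.52, 0.24 and 0.21, and 16 of 17 were lowest on array 2. Absorptive, antigen-presenting and lymphocyte lists were therefore all low on array 2.

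Other lists were high on array 2. Enteroendocrine genes gave -0.07, 0.59, -0.24 and -0.17 log2, and 11 of 14 were highest on array 2. Gip, the incretin of upper intestinal K cells, read 10.36, 12.03, 9.45 and 9.58 log2. Insm1, a transcription factor of enteroendocrine precursors, read 5.63, 7.56, 6.06 and 6.20. Crypt base stem cell genes gave -0.33, 0.36, -0.06 and -0.06, with 10 of 14 highest on array 2. Proliferation genes gave 0.06, 0.35, -0.19 and -0.17, with 18 of 31 highest there, and cytosolic ribosomal protein genes 0.07, 0.19, -0.11 and -0.12, with 30 of 53 highest there. The goblet cell product list, without Tff1 and Tff2, which were above background on some arrays only, gave 0.08, -0.04, 0.03 and -0.03. Of its 29 genes, 15 were highest on array 1, where its deviation was near the 0.07 of all genes. The Paneth list gave 0.14, -0.07, -0.09 and -0.04, with 11 of 17 highest on array 1 and none lowest there. The summed linear level on arrays 1 to 4 was 7949, 14964, 7438 and 7570 units for the enteroendocrine list and 8931, 5377, 9372 and 8762 for the T cell list. The T cell list, in this sum and in the counts, includes the probe named Prf1, its brightest member, whose name is uncertain. The part of these other cell types in the spread was not tested.

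**Figure D3:**
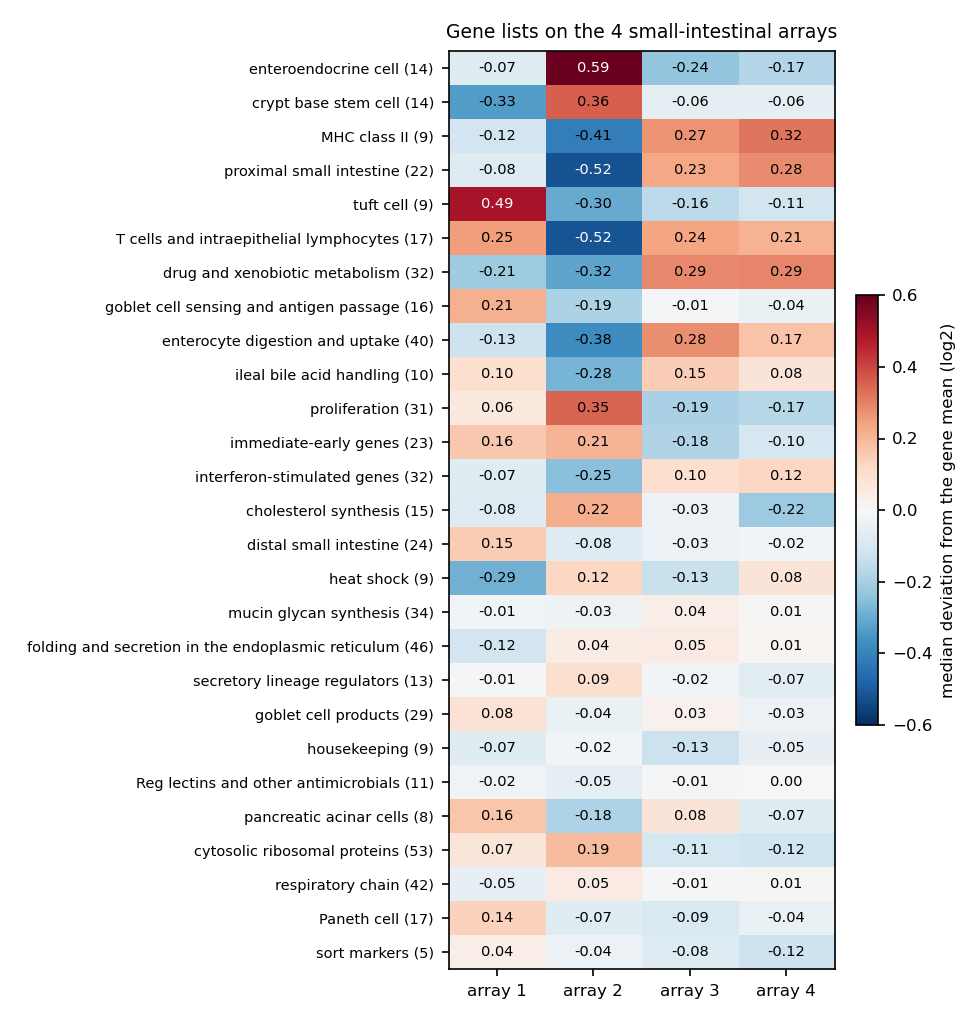
Median deviation of a gene list from each gene's mean over the 4 arrays (log2, colour and printed value), by array (columns) and list (from the widest to the narrowest median SD, with the number of members above background on all 4 arrays). Array 2 is highest for the enteroendocrine list, at 0.59, and lowest for the proximal and T cell lists, at -0.52, while goblet cell products stay between -0.04 and 0.08.

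Stomach genes marked array 1. The 2 widest ranges among genes above background on 1 to 3 arrays were Tff1 and Gkn2, both made by mucous cells of the stomach surface, and Tff2 and Gkn1 were among the first 5. Tff1 read 10.25, 4.48, 6.11 and 5.25 log2 on arrays 1 to 4 and was above background on arrays 1 and 3. Gkn2 read 10.39, 4.64, 6.21 and 6.72 and was above background on arrays 1, 3 and 4. Tff2, a trefoil peptide of stomach neck cells and of Brunner's glands in the duodenum, read 8.95, 4.88, 4.96 and 5.39. Gkn1 read 8.55, 4.93, 5.14 and 5.06 and was above background on array 1 alone. Each of the 4 genes was highest on array 1, which lay at least 31.2-fold above the lowest array for Tff1, 34.4-fold for Gkn2, 12.7-fold for Tff2 and 9.64-fold for Gkn1. Tff3, whose gene neighbours Tff2 and Tff1 in the RefSeq order of genes, was level on the same arrays.

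A list of 17 stomach genes was drawn up after these values were seen and is a description only. Of these, 2 (11.8%) were above background on all 4 arrays, 8 on 1 to 3 and 7 on none. The shares of all genes were 46.3%, 14.6% and 39.1%, so the count on none is near that of all genes. The aspartic protease gene Ctse read 7.13, 4.73, 6.08 and 5.91 log2, and the annexin gene Anxa10 read 6.85, 4.68, 4.88 and 4.76, both highest on array 1. The gastric mucin genes Muc5ac and Muc6, the pepsinogen gene Pgc, the proton pump subunit gene Atp4b and the intrinsic factor gene Cblif were above background on no array. Gkn3 read 6.41, 6.51, 5.66 and 5.78, and Barx1, a homeobox factor of stomach mesenchyme, 5.82, 6.66, 7.26 and 7.07. Both were above background on every array by these probes, and neither was highest on array 1. A second Barx1 probe was above background on no array. The median range over the 17 genes was 0.85 log2 with all 4 arrays and 0.35 without array 1. A range over fewer arrays cannot be wider, and the list was drawn up with array 1 known to be high. The fall was thus largely fixed in advance, and the 7 genes above background on no array add background readings to both medians.

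**Figure D4:**
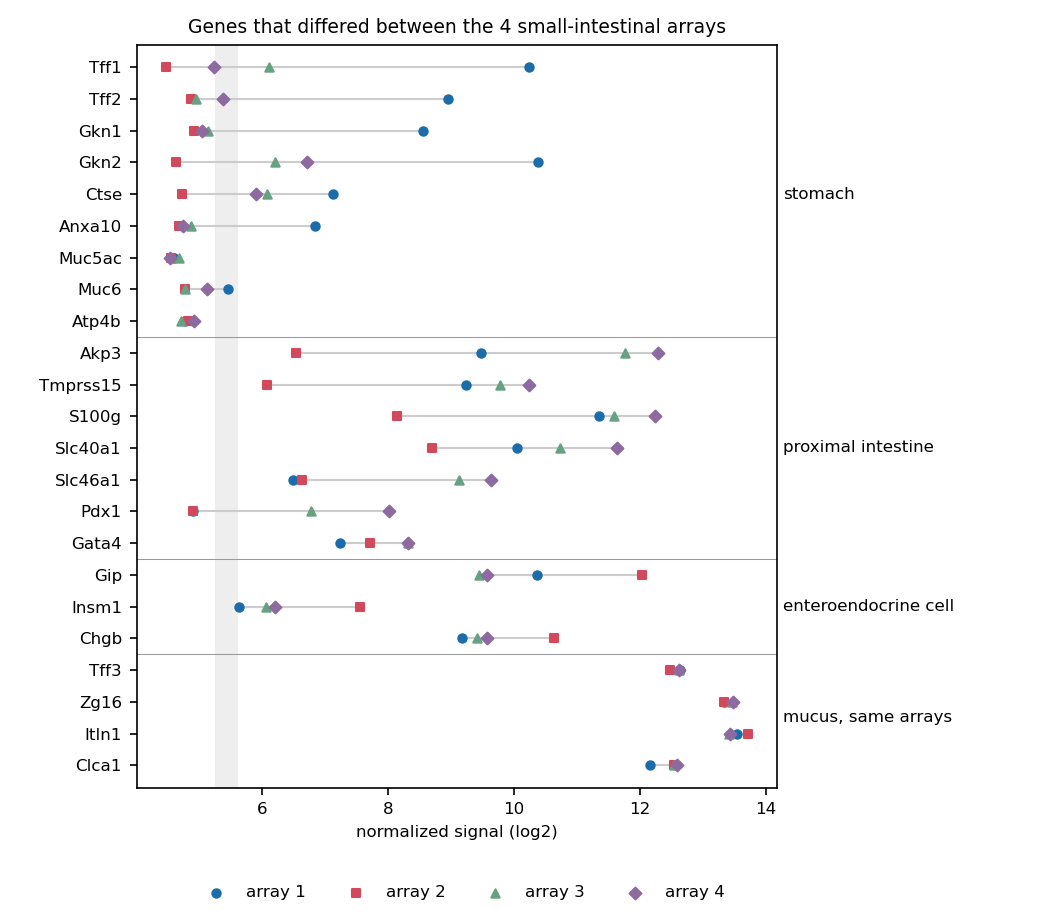
Normalized signal (log2, horizontal axis) on each of the 4 arrays, 1 symbol per array, for stomach, proximal intestine, enteroendocrine and mucus genes, with a grey line from the lowest to the highest array and a grey band at the background limit of 5.28 to 5.60 log2. Tff1, Tff2, Gkn1 and Gkn2 are far right on array 1 alone, Akp3, Tmprss15 and S100g are far left on array 2, Gip is highest on array 2, and Tff3, Zg16 and Itln1 hardly move.

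The promoters of the 3 widest-ranging genes of upper intestinal digestion and calcium handling, and of the neighbouring stomach genes Gkn1 and Gkn2, are shown because their readings set array 2 or array 1 apart. Sequences are from RefSeq on mouse build GRCm38.p6 and run 5′ to 3′ from 250 bases before to 50 after the start of the gene, on the gene's strand. Capitals mark matches, on either strand, to 3 motifs. The letters AGATAA are bound by zinc finger factors of the Gata family. The letters TATAAA form the classical core promoter box. The letters GTTAAT are part of the recognition sequence of HNF1 factors. Of 8 genes looked up, 5 were in the table. Tff1, Tff2 and Tff3 are named only.
Akp3: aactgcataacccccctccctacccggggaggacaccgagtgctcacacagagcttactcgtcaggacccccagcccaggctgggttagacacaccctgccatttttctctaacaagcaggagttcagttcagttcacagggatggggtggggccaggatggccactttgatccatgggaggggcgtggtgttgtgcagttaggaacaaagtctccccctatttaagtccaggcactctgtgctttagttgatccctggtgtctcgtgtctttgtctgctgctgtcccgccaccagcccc
Tmprss15: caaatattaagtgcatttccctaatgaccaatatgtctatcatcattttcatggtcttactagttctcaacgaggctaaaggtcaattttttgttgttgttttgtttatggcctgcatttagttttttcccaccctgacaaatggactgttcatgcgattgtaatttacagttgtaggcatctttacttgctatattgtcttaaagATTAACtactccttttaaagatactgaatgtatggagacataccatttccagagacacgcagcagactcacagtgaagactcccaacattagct
S100g: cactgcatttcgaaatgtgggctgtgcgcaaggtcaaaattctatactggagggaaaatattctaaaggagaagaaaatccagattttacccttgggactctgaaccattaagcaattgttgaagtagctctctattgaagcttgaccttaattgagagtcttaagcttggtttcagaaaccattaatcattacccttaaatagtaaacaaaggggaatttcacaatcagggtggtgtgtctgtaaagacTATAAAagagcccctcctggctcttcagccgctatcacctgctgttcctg
Gkn1: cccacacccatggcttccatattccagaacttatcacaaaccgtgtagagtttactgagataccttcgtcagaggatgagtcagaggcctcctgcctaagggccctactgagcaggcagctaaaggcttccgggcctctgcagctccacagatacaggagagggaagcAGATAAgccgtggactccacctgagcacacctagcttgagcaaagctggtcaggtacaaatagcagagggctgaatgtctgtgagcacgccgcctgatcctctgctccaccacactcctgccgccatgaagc
Gkn2: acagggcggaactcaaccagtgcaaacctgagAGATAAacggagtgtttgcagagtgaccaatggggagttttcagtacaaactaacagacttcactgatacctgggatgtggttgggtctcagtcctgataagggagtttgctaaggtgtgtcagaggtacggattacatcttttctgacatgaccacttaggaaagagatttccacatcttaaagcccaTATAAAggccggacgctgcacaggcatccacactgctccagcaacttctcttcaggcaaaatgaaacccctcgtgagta
The Akp3 window is chr1:87124704-87125003 on the plus strand and held no match. That of Tmprss15 is chr16:79091048-79091347 on the minus strand and held 1 GTTAAT match, printed as its reverse complement. That of S100g is chrX:162964550-162964849 on the minus strand and held 1 TATAAA. That of Gkn1 is chr6:87350866-87351165 on the minus strand and held 1 AGATAA, and that of Gkn2 is chr6:87373115-87373414 on the plus strand and held 1 AGATAA and 1 TATAAA. Of 32851 promoter windows of the same length, 11.2% held AGATAA, 13.6% TATAAA and 7.10% GTTAAT. A match describes these letters alone.

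Single genes of other kinds also ranged widely. Erdr1, named as an erythroid differentiation regulator, read 8.88, 10.38, 7.91 and 5.51 log2 and was one of the genes that differed between the close arrays 3 and 4. Rps2, of the small ribosomal subunit, read 9.19 log2 on array 1 against 12.06, 11.98 and 12.06 on arrays 2 to 4, although 53 ribosomal protein genes had a median SD of 0.20. Ykt6, a SNARE of Golgi traffic, was lowest on array 1, with 8.22, 10.10, 10.69 and 10.72 log2. A second Ykt6 probe gave 6.22, 8.64, 9.21 and 9.33, the same order of arrays. The second probe did not always follow. Nsd1, a histone methyltransferase gene, spanned 2.91 log2 on its first probe and 0.58 on its second, and Trat1, a T cell adaptor gene, had a second probe above background on no array. Of 20 genes that spanned 4-fold and had a second probe above background on all 4 arrays, 16 shared the lowest array and 8 the highest.

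Of 30 immediate-early genes with a probe, 23 (76.7%) were above background on all 4 arrays, against 46.3% of all genes. Of these 23, 10 were highest on array 2 and 8 on array 1, while 6 were lowest on array 2, with no matching count over all genes. Egr1 read 12.92, 13.26, 12.14 and 12.31 log2, and its relative Egr2 was highest on array 2, at 11.23, and lowest on array 3, at 8.70. Of 16 heat shock genes with a probe, 9 (56.25%) were above background on all 4 arrays. Of these 9, 5 were highest on array 2, and 2 (22.2%) spanned 2-fold, near the share of all genes. The inducible chaperone gene Hspa1a, outside these 9, was not above background on array 1 and read 7.35, 8.46 and 8.40 log2 on arrays 2 to 4. Array 3, its highest, was at least 7.27-fold above array 1. Bag3, a co-chaperone gene of the same response, read 7.74, 8.13, 8.81 and 8.19. Their part in the differences between arrays was not tested.

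The 15 genes with the smallest SD among those with means of 10 log2 or above had mixed functions. After Rpl23, Sel1l, an adaptor of protein degradation at the endoplasmic reticulum, had the smallest SD, 0.01 log2, at 10.56, 10.54, 10.55 and 10.56. Erp44, a thioredoxin-like retention factor of the secretory pathway, averaged 12.17 ± 0.02, and Rab2a, a small GTPase between endoplasmic reticulum and Golgi, 13.31 ± 0.04. The respiratory chain subunits Cox5a, Cox6b1 and Ndufv3 averaged 11.73 ± 0.01, 12.80 ± 0.03 and 10.77 ± 0.03, and 42 respiratory chain genes above background had a median SD of 0.15. Cldn15, a pore-forming claudin of small-intestinal tight junctions, averaged 12.51 ± 0.03, and the alpha-defensin Defa21 13.74 ± 0.02. These SDs hold for 1 probe per gene. Second probes, above background on all 4 arrays, ranged over 0.67 log2 for Sel1l, 0.81 for Cldn15, 0.55 for Cox6b1 and 0.55 for Ndufv3. Quantile normalization also narrows these values. With each array centred on its median instead, these 15 genes had SDs from 0.17 to 0.50 log2.

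Finally, Xist, the X-inactivation RNA, read 10.65, 10.37, 10.61 and 10.72 log2, and the Y-linked genes Eif2s3y and Kdm5d were above background on no array. Uty, a further Y-linked gene, read 5.41 to 5.89 log2, just over the background limit. These 4 genes were chosen after their values were seen.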

How the data were processed

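The deposited signal table holds, per the file headers and values, a mean intensity per probe and array, neither background-subtracted nor scaled, with a detection p-value from the authors' scanner software. The software's name and any build are not given in the sources used here. A second table of the authors' processed intensity values served as an alternative. In the series, 1 unreadable cell (colon array 3, Zswim4) was restored from that table.

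All 8 arrays were normalized together by the neqc function (limma 3.58.1, R 4.3.3: normexp from detection p, offset 16, quantile, log2). Python 3.11.15, pandas 2.3.3 and numpy 2.4.6 computed the summaries, and matplotlib 3.10.9 drew the figures. Probes were named from the platform annotation, updated through RefSeq: 23978 have 1 gene symbol and 1719 none. No contrast exists within 1 group, so none was tested. Dixon's ratio was used only to mark genes with 1 array apart. The number of arrays limits precision.

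Named genes were the 25 brightest and 25 widest-ranging among those above background on all 4 arrays, 10 widest on 1 to 3 arrays, 15 with the smallest SD at means of 10 log2 or above, up to 3 brightest and 2 widest of each of 31 lists, and 35 listed genes, of which 6 had no named probe. The stomach and sex-linked genes were added after their values were seen. Members and lists were chosen with earlier results of these data known. An "at least" fold sets the highest array against, on the lowest array, the higher of the lowest signal above background and the probe's own. The summary scripts were tested on simulated data. Alternatives were detection p below 0.01, offset 50, no background correction, no quantile normalization, the authors' values, the 4 arrays alone, each gene's lowest probe, and each array left out.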

Additional observations from a re-analysis of the deposited data

Results flagged for a closer look

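Of 222 named genes, 23 (10.4%) had 1 array far from the other 3, by Dixon's ratio of the gap to the whole range, above its 95% critical value for 4 samples. Chance gives about 1 in 20 such groups. Many of these genes were named for a wide range, or after their values were seen, so the share is not to be set against that rate. The ratio ignores the size of the range, which can be small. Array 1 was the one apart for 15 genes and array 2 for 8, and neither array 3 nor array 4 for any.

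Array 1 was higher for the stomach genes Gkn1 (ratio 0.942), Tff2 (0.876) and Anxa10 (0.906), for the immunoglobulin joining chain gene Jchain (0.886), for Mmp7 (0.891) and Cd24a (0.845), and for Defa20 (1.0). For Gkn1, Anxa10 and Jchain the other 3 arrays were not above background. Array 1 was lower for Rps2 (0.972), Ssx2ip (0.924), Rgmb (0.959), H2az1 (0.853), Ccnd2 (0.857), Atp5o (0.847), Clca1 (0.911) and Ctcfl (1.0). The ranges of Ctcfl and Defa20 were 0.21 log2 each. Their ratios follow from quantile normalization, since both probes exchange signal ranks 2 and 3. The Ctcfl signals before it, 29597, 25420, 28518 and 36467 units on arrays 1 to 4, were not lowest on array 1.

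Array 2 was lower for the T cell and cytotoxic genes Cd3e (0.917) and Gzma (0.912), for a probe named Prf1 (0.842) whose name is uncertain, for the proximal gene Ms4a10 (0.911), for Nt5e (0.842) and for Tff3 (0.851). It was higher for Krt18 (0.849) and Psmd4 (0.911).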

How the results depend on the processing

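Counts of genes by range depended on the processing. The median SD of 0.33 log2 became 0.21 with no background correction and 0.48 with no quantile normalization. The 7678 genes above background on all 4 arrays became 6625 at a detection p below 0.01, and the normalization settings cannot change that number. Nor can most of them change a rank correlation, since they keep the order of probes within each array. The 100 genes spanning at least 4-fold became 64 at a detection p below 0.01, 36 with an offset of 50, 13 with no background correction, 537 with no quantile normalization and 317 with the authors' processed values. The 2094 genes spanning at least 2-fold became 1327, 499 and 4302 with the offset of 50, no background correction and no quantile normalization. In this last setting the arrays were neither scaled nor centred, so differences in overall array brightness count as spread of genes. Leaving out each array in turn gave 24 to 77 genes at 4-fold, 783 to 1803 at 2-fold, 7758 to 8184 genes and 11432 to 12315 probes above background on the remaining arrays, a median SD of 0.24 to 0.35 and a lowest Spearman correlation of 0.916 to 0.940. The extremes 24, 783 and 0.940 were without array 1. With arrays 3 and 4 averaged, an alternative chosen after seeing the data, 67 genes spanned 4-fold and 1632 spanned 2-fold. Of the 25 widest-ranging genes, 13 to 23 were among the widest 25 under each alternative, 13 being without array 1. The cause was not tested.

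No paired analysis was possible because only 1 group is described and no groups were compared. Signals near background limit what low genes show, and 2420 genes were above background on some arrays only. Levels compare arrays for 1 probe, not genes with each other.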
